A study of Mus musculus with 6 samples.

Results

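The constitutive proteasome genes were examined in monocytes sorted from B16F10 melanoma tumours of mice. Members were the protein-coding rows of the deposited table whose symbol begins with Psma to Psmg and a digit, leaving out the immunoproteasome subunits Psmb8, Psmb9 and Psmb10 and the activator subunits Psme1 and Psme2. This gave 46 genes of 56980 in the table, of which 44 passed a filter on low counts. By role they were 14 genes of the core particle, 9 of the base and 8 of the lid, 7 assembly chaperones, 3 activators or inhibitors, 2 core subunits known from single tissues, and 3 further matches that are not constitutive subunits. The last 3 are Psmc3ip and Psme3ip1, which encode proteins that bind a subunit, and Psme2b, a copy of the activator gene Psme2.

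RNA was sequenced from cells sorted as CD11b-positive, Ly6C-high and Ly6G-negative out of tumours of the mCherry-marked B16F10 line. The treatments are labelled LNP-GFP (3 libraries, the controls) and LNP-Gsdme (3 libraries), where LNP stands for lipid nanoparticle and the title of the series names mRNA that encodes gasdermin E, a pore-forming protein of lytic cell death. The question put by the submitters is how the treatment changes gene expression in these monocytes. The mice of both groups are labelled as genotype WT, and the labels used here give no strain, age, sex, dose or time. Whether each library is a different animal is not stated either, and the p-values therefore reflect just the variation among these libraries, possibly of technical origin. Values of single libraries are listed in the order of replicates 1, 2 and 3.

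The proteasome is the protease complex that breaks down proteins tagged with ubiquitin. Its core particle is a barrel of outer alpha rings, which gate the entrance, and inner beta rings, 3 of whose subunits (Psmb5, Psmb6 and Psmb7) cut peptide bonds. A cap made of a base and a lid binds ubiquitin, removes it and feeds the unfolded protein into the barrel. Cells exposed to interferon can replace the 3 catalytic subunits by Psmb8, Psmb9 and Psmb10, which changes the peptides that reach MHC class I molecules.

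Libraries held 15991826 to 22932095 counts. LNP-GFP 3 lay between the other 2 controls in 61.9% of the 16010 tested genes (19.1% and 19.0% for LNP-GFP 1 and 2), and in 59.1% of the 44 tested members. Levels are given as CPM, counts scaled to library size and TMM factors. Defining monocyte genes were present, but at unequal levels: Ly6c2, which encodes the Ly6C of the sort gate, stood at 257, 267 and 211 CPM in LNP-GFP and at 1370, 1860 and 1400 CPM in LNP-Gsdme (log2 fold change 2.66, adjusted p = 0.00219). Csf1r, the receptor of the growth factor CSF1, stood at 982 to 1260 CPM in LNP-GFP and at 713 to 941 CPM in LNP-Gsdme (adjusted p = 0.104), and Ly6g, the neutrophil gene gated out, at 0 to 0.618 CPM. Markers of other cells were present too: 10 fibroblast markers summed to 9320 to 10400 CPM in LNP-GFP and to 3010, 2230 and 5770 CPM in LNP-Gsdme. Summed NK cell markers (8 genes) stood at 398, 90.8 and 235 CPM in LNP-GFP and at 541, 473 and 408 CPM in LNP-Gsdme. Melanoma markers summed to 338, 1840 and 1100 CPM in LNP-GFP and to 128, 177 and 756 CPM in LNP-Gsdme. The log2 ratio of the group means was -1.63 for melanoma, -1.42 for fibroblast, -0.63 for conventional dendritic cell, -0.42 for macrophage, -0.38 for cell cycle, -0.33 for endothelial, -0.01 for neutrophil, 0.03 for B cell, 0.09 for Ly6C-high monocyte, 0.58 for T cell and 0.97 for NK cell markers. Fewer cells of a type and less RNA per cell cannot be told apart in such bulk samples. Gsdme itself was low in both groups (2.68 to 4.44 CPM over the 6 libraries; log2 fold change -0.26, edgeR quasi-likelihood adjusted p = 0.450).

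A minority of the proteasome genes passed the test, all of them higher in LNP-Gsdme. Of the 44 tested members 7 rose, 0 fell and 37 were not called. The 7 showed increases of 20.4 to 34.1% (edgeR quasi-likelihood test over all genes, Benjamini-Hochberg adjusted p below 0.05). The 7 were Psma5, Psma7, Psmb2 and Psmb3 of the core, Psmc4 and Psmd4 of the base, and Psmd3 of the lid. They make up 15.9% of the tested members, where 11.6% of all tested genes were called, 6.30% upward and 5.32% downward. 34 of 44 members (77.3%) had a log2 fold change above 0, against 49.3% of all tested genes (50.7% of all were below 0), and the median was 0.15, against -0.01 for all. In 20 members (45.5%) every LNP-Gsdme library lay above every LNP-GFP library, against 19.6% of all tested genes, and in 2 (4.55%) every one lay below, against 18.2%. For the 0 that fell, 1 member was lower at an unadjusted p under 0.05, and DESeq2 and limma-voom called 0 as well. At that unadjusted p 15 members were higher. Of all 16010 tested genes 2580 were higher and 2471 lower at the same unadjusted p, and DESeq2 called 9.71% of genes upward. The counts by role and list below are to be read beside these. Of the 44 tested members 33 had a mean of at least 50 CPM, while the shares over all genes include genes with few counts. With a stricter low-count filter 7.32% of all genes were called upward. A comparison with genes of like level was not made. The count of 7 depended on single libraries. It was 0 without LNP-GFP 3, without LNP-Gsdme 1 or without LNP-Gsdme 2, where 0.395%, 0.647% and 0.721% of all genes were called upward. In these settings 12, 11 and 11 members were higher at an unadjusted p under 0.05. That count was not made for all genes there, so these 3 counts have no background and do not show a lasting rise. The count called was 2 without LNP-GFP 2 (3.67% of all genes upward), 3 without LNP-Gsdme 3 (5.63%) and 8 without LNP-GFP 1 (9.96%). The median of the members stayed between 0.14 and 0.16 when single libraries were left out.

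**Figure D1:**
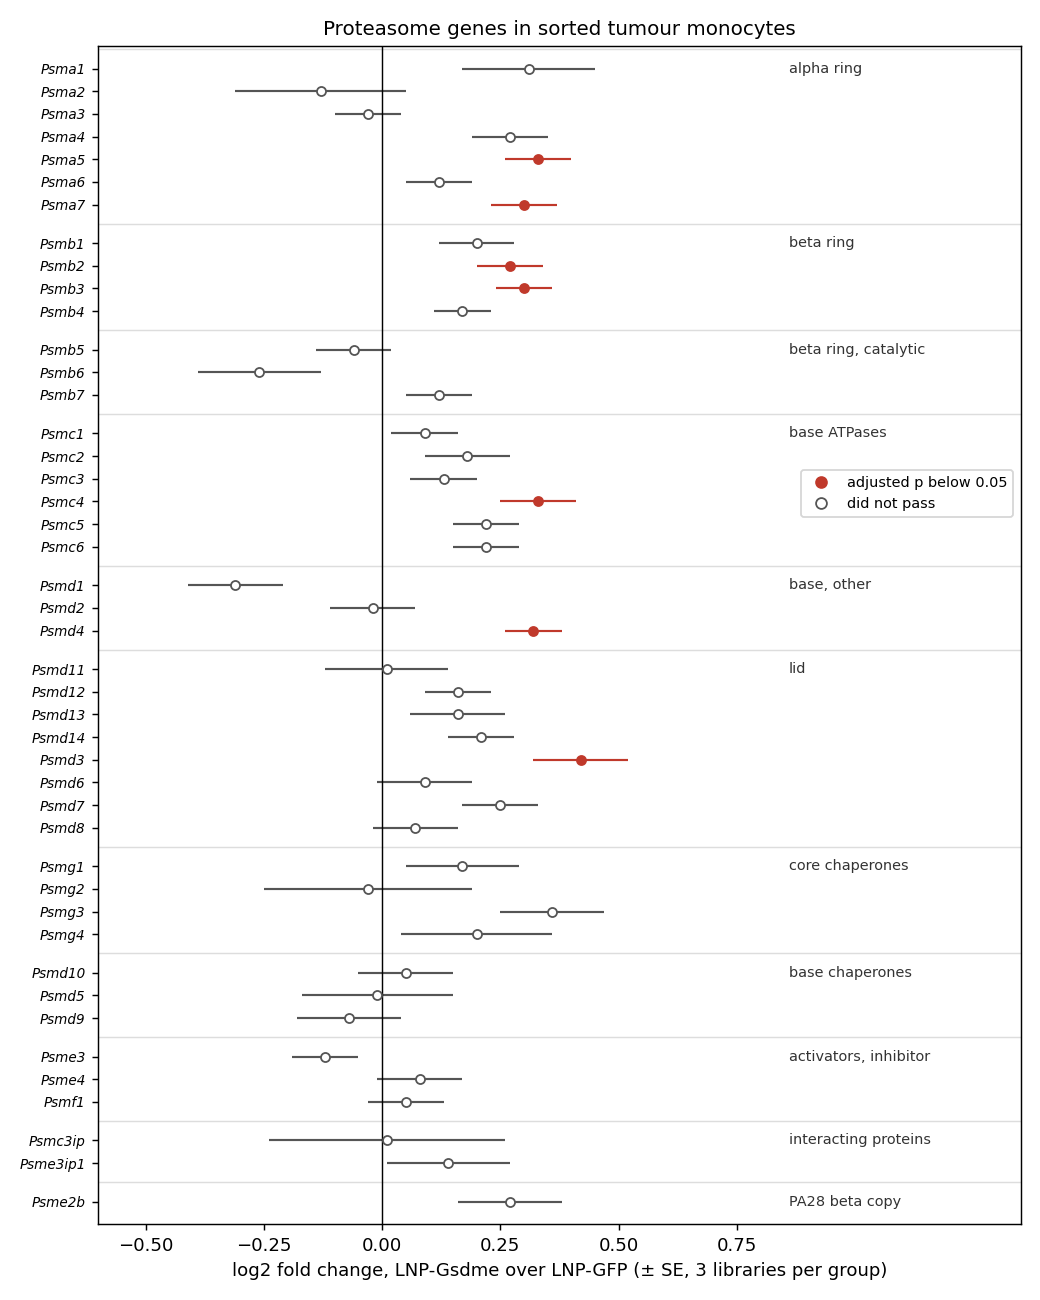
Log2 fold change (LNP-Gsdme over LNP-GFP, x axis) of the 44 tested members, grouped by role; bars are SE from edgeR with 3 libraries per group, and filled red points passed an adjusted p of 0.05. The 7 members that passed lie between 0.27 and 0.42, most of the core, base and lid lies right of 0, and the catalytic subunits Psmb5 and Psmb6 and the base subunit Psmd1 lie left of it.

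Psmd4, the subunit of the cap that captures ubiquitin chains (chromosome 3, 94940005 to 94949925, GRCm39), had the smallest p-value among the members. It stood at 99.7, 102 and 102 CPM in LNP-GFP and at 126, 126 and 128 CPM in LNP-Gsdme. The difference was large beside the spread within each group, at a log2 fold change of 0.32 ± 0.06 SE with 3 libraries a group (adjusted p = 0.0264). With single libraries left out its adjusted p ran from 0.0290 to 0.124, and it was above the threshold without LNP-GFP 3, LNP-Gsdme 1 or LNP-Gsdme 2 (0.124, 0.103 and 0.102).

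Psmd3, a structural subunit of the lid (chromosome 11, 98573380 to 98586805), rose most among the members. It stood at 193, 158 and 156 CPM in LNP-GFP and at 230, 221 and 228 CPM in LNP-Gsdme (log2 fold change 0.42 ± 0.10 SE, adjusted p = 0.0430). LNP-GFP 1 was the highest control, and the LNP-Gsdme libraries differed little among themselves. Psmc4, 1 of the 6 ATPases that unfold the substrate (chromosome 7, 27741132 to 27749526), stood at 103, 102 and 94.7 CPM in LNP-GFP and at 115, 130 and 131 CPM in LNP-Gsdme (log2 fold change 0.33 ± 0.08 SE, adjusted p = 0.0467). Here LNP-Gsdme 1 was the lowest of its group, yet above each control.

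In the alpha rings Psma5 and Psma7 rose. Psma5 (chromosome 3, 108164242 to 108187290) stood at 40.2, 38.9 and 39.5 CPM in LNP-GFP and at 51.0, 49.8 and 48.1 CPM in LNP-Gsdme (log2 fold change 0.33 ± 0.07 SE, adjusted p = 0.0308). The processed pseudogene Psma5-ps on chromosome 10 carried 22.8 to 24.3 CPM in LNP-GFP and 29.5 to 31.9 CPM in LNP-Gsdme, and was called as well (log2 fold change 0.35, adjusted p = 0.0385). Reads of Psma5 and its copy may have been split between them, so the level of Psma5 is uncertain, while both rows shifted by a like amount. Psma7 (chromosome 2, 179678167 to 179684226) stood at 121, 114 and 120 CPM in LNP-GFP and at 145, 153 and 139 CPM in LNP-Gsdme (log2 fold change 0.30 ± 0.07 SE, adjusted p = 0.0423).

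In the beta rings Psmb2 and Psmb3, which have no cutting site, rose. Psmb3 (chromosome 11, 97594225 to 97604326) stood at 92.5, 95.4 and 89.8 CPM in LNP-GFP and at 116, 112 and 113 CPM in LNP-Gsdme (log2 fold change 0.30 ± 0.06 SE, adjusted p = 0.0354). Psmb2 (chromosome 4, 126571423 to 126603507) stood at 87.9, 83.9 and 86.5 CPM in LNP-GFP and at 99.7, 108 and 104 CPM in LNP-Gsdme (log2 fold change 0.27 ± 0.07 SE, adjusted p = 0.0494). The groups did not overlap in either gene. Psmb2 lay closest to the threshold and passed in 6 of 17 alternatives, against 12 for Psmd4.

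**Figure D2:**
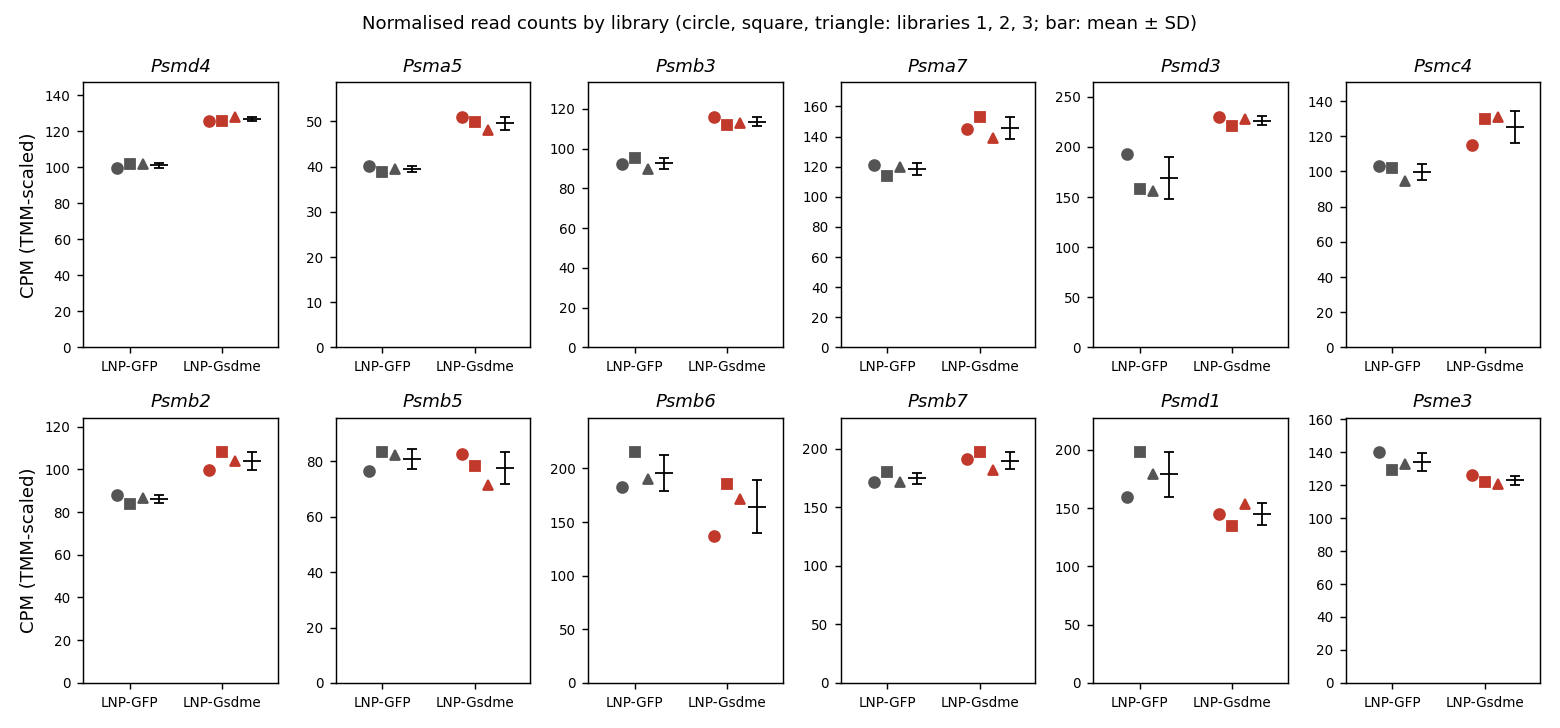
CPM (y axis, from 0) in each library for the 7 members that rose, the 3 catalytic subunits, and Psmd1 and Psme3, the 2 members whose LNP-Gsdme libraries all lay below the controls; symbols mark libraries 1 to 3, and bars are mean ± SD of 3. Psmd4 shows 99.7 to 102 against 126 to 128 CPM, and Psmb5 overlaps between the groups.

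The sequences before the start sites are shown for the rising members with an entry in the promoter table, and for the catalytic subunit Psmb5, which did not pass, for comparison. They come from RefSeq on build GRCm38.p6, which is not the build of the counts, and each is the 250 bases before the start, 5′ to 3′ in the direction of the gene. The positions are Psmd4 at chr3:95042615-95042864 (minus strand), Psmb3 at chr11:97703184-97703433 (plus strand), Psma7 at chr2:180042465-180042714 (minus strand), Psma5 at chr3:108256676-108256925 (plus strand), Psmc4 at chr7:28050093-28050342 (minus strand) and Psmb5 at chr14:54617996-54618245 (minus strand). Capitals mark CCAAT (the box bound by NF-Y), CCGGAAG (the core site of ETS factors) and the direct repeat of the interferon-stimulated response element (ISRE) on either strand.
Psmd4: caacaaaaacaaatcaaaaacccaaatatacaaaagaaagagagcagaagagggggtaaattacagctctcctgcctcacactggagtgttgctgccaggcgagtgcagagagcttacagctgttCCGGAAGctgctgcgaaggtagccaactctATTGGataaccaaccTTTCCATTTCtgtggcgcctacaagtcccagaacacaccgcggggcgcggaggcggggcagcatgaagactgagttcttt
Psmb3: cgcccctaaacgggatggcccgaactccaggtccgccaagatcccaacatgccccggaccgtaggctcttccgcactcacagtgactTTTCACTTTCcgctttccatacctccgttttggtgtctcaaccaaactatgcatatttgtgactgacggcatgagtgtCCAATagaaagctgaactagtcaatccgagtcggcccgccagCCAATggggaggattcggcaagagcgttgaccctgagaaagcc
Psma7: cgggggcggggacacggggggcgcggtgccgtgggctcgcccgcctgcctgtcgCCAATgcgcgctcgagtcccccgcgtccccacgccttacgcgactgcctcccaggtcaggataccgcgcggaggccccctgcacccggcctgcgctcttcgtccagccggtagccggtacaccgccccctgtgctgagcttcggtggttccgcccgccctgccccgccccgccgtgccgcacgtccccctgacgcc
Psma5: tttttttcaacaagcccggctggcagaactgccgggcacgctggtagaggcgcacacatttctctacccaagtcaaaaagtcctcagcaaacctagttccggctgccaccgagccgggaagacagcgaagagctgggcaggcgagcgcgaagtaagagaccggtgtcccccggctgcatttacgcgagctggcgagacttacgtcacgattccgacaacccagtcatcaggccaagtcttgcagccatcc
Psmc4: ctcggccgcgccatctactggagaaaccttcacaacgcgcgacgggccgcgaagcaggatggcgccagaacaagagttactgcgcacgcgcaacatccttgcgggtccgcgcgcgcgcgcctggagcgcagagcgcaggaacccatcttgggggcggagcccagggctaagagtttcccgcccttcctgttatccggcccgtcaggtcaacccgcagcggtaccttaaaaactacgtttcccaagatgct
Psmb5: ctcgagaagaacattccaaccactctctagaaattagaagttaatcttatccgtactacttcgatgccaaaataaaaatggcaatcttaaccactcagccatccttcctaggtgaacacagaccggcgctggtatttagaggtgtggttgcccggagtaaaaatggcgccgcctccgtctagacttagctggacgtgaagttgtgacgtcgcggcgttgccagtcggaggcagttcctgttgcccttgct

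In these sequences Psmb3 and Psmd4 each carry 1 match to the ISRE repeat, starting 163 and 80 bases before the start site. Psmb3 has a pair of CCAAT boxes, Psmd4 has a CCAAT and a CCGGAAG match, Psma7 has a CCAAT box, and the windows of Psma5, Psmc4 and Psmb5 hold none of the 3 motifs. Of the members 38 had an entry, with several starts for 3 of them, and 13 motifs were searched on both strands, a gene counting when any of its starts holds the motif. CCGGAAG was present in 13 of 38 (34.2%), against 15.0% of 10691 tested genes with an entry and 6.91% of all 32851 promoters. Most of these members were not called, and Psmd4 was the one that rose. GGAANNNCC was present in 17 of 38 members (44.7%), against 21.4% of tested genes and 15.7% of all promoters, and in 4 members it overlapped CCGGAAG. The box CCAAT was present in 39.5% of members, against 40.6% of tested genes and 33.8% of all promoters. The ISRE repeat was present in 3 members (7.89%), Psmb3, Psmd4 and the chaperone gene Psmd9, against 3.44% of tested genes and 2.98% of all promoters. TGACTCAGC, a form of the antioxidant response element, was in 0 members, against 0.468% of tested genes and 0.390% of all promoters. The looser form TGANTCAGC was also in 0 members (1.19% of tested genes, 1.02% of all promoters), and its outer letters alone, TGANNNNGC, were in 42.1% of members against 41.4% of tested genes and 35.2% of all promoters. The GC box GGGCGG was in 52.6% of members, against 62.0% of tested genes and 32.7% of all promoters. The E-box CACGTG was in 10.5% of members, against 9.74% of tested genes and 6.02% of all promoters. The heat shock unit TTCNNNGAA was in 2.63% of members, against 7.21% of tested genes and 7.02% of all promoters. The motif GCGCATGC, bound by the factor encoded by Nrf1, was in 5.26% of members, against 4.76% of tested genes and 2.26% of all promoters. The gene Nrf1 is not Nfe2l1, whose product, described below, is also called NRF1. A pair of longer forms lay within motifs already given: ATTGGCT, in 6 members (11.9% of tested genes, 7.25% of all promoters), always overlapped CCAAT, and ACTTCCGG, in 5 members (6.42% of tested genes, 2.88% of all promoters), always overlapped CCGGAAG. Such matches describe letters in a window and show no binding.

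In the core particle the 14 subunits together reached 1730, 1720 and 1680 CPM in LNP-GFP and 1860, 1890 and 1830 CPM in LNP-Gsdme, which is 8.61% higher on average. Of the 14, 4 rose (28.6%, against 6.30% of all tested genes), 0 fell and 9 did not overlap upward (64.3%, against 19.6%), with a median log2 fold change of 0.19 (6 higher and 0 lower at an unadjusted p under 0.05, and 5 higher and 0 lower by DESeq2). Among the subunits that did not pass, Psma4 stood at 81.6, 73.9 and 80.8 CPM in LNP-GFP and at 91.9, 102 and 91.3 CPM in LNP-Gsdme (log2 fold change 0.27, adjusted p = 0.0732). Psma4 was the 1 member that DESeq2 called in addition to the 7. Psmb4, the most abundant core subunit per length, stood at 246 to 248 CPM in LNP-GFP and at 273 to 286 CPM in LNP-Gsdme (log2 fold change 0.17, adjusted p = 0.114).

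In 2 alpha subunits 1 library lay far from the other 5. Psma2 was at 157 to 175 CPM in 5 libraries and at 107 CPM in LNP-Gsdme 2. Psma1 was at 105 to 135 CPM in 5 libraries and at 169 CPM in the same LNP-Gsdme 2, so the pair deviated in opposite directions in that library. Neither passed (adjusted p = 0.650 and 0.196).

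Of the 3 catalytic subunits 0 were called (0 at an unadjusted p under 0.05 and 0 by DESeq2 or limma-voom), and their median log2 fold change was -0.06, against 0.27 for the 7 alpha subunits and 0.23 for the 4 other beta subunits. The difference between these groups was not tested. Psmb5, which makes the chymotrypsin-like cut and is the main target of proteasome inhibitors, stood at 76.6, 83.3 and 82.5 CPM in LNP-GFP and at 82.8, 78.4 and 71.5 CPM in LNP-Gsdme (log2 fold change -0.06 ± 0.08 SE, adjusted p = 0.652). The groups overlapped. Psmb6, with the caspase-like activity, stood at 183, 215 and 190 CPM in LNP-GFP and at 137, 185 and 171 CPM in LNP-Gsdme (log2 fold change -0.26 ± 0.13 SE, adjusted p = 0.224). LNP-Gsdme 1 was the lowest, and LNP-Gsdme 2 lay within the range of the controls. Psmb7, with the trypsin-like activity, stood at 172, 180 and 172 CPM in LNP-GFP and at 191, 197 and 182 CPM in LNP-Gsdme (log2 fold change 0.12 ± 0.07 SE, adjusted p = 0.254). All LNP-Gsdme libraries of Psmb7 lay above the controls, by less than the test required. The span of Psmb7 overlaps that of Nek6, a gene with up to 1205 counts in a library, over 6571 bases. The effect of this on the count of Psmb7, and on its ratio to Psmb10 below, was not tested.

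In the base, 2 of 9 subunits rose (22.2%, against 6.30% of all tested genes) and 0 fell (4 higher and 1 lower at an unadjusted p under 0.05, and 2 and 0 by DESeq2), with a median log2 fold change of 0.18. All 6 ATPases had values above 0 (0.09 to 0.33, median 0.20). Psmc5 and Psmc6 had log2 fold changes of 0.22 and 0.22 with adjusted p of 0.0867 and 0.0870, and their groups did not overlap. The 3 base subunits without ATPase activity differed: Psmd4 rose, while Psmd1 and Psmd2, the large scaffolds that dock ubiquitin receptors and shuttles, had values of -0.31 and -0.02. Psmd1 stood at 160, 198 and 179 CPM in LNP-GFP and at 145, 135 and 154 CPM in LNP-Gsdme (adjusted p = 0.0979), so it was lower in every LNP-Gsdme library without passing the test.

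In the lid, 1 of 8 subunits rose (12.5%, against 6.30% of all tested genes upward and 11.6% in either direction) and 0 fell (3 and 0 at an unadjusted p under 0.05, and 1 and 0 by DESeq2). All 8 had log2 fold changes above 0 (0.01 to 0.42, median 0.16). The summed lid reached 954, 1020 and 970 CPM in LNP-GFP and 1100, 1120 and 1120 CPM in LNP-Gsdme, which is 13% higher on average. Much of that gain came from Psmd3, whose mean went from 169 to 226 CPM while the mean lid sum went from 983 to 1110 CPM. The summed base went from a mean of 1200 to 1290 CPM, which is 6.96% higher. Psmd14, the enzyme that cuts ubiquitin chains off the substrate, stood at 87.4, 89.4 and 91.0 CPM in LNP-GFP and at 101, 109 and 100 CPM in LNP-Gsdme (log2 fold change 0.21, adjusted p = 0.0889). Psmd7, its partner in the lid, had a value of 0.25 (adjusted p = 0.0882), and the groups did not overlap in either gene. Psmd11 stood at 89.0, 125 and 101 CPM in LNP-GFP and at 104 to 108 CPM in LNP-Gsdme, so the controls varied more than the groups differed (log2 fold change 0.01, adjusted p = 0.953). Psmd13 shares its span with the row Gm15542, a processed pseudogene with 1488 to 2229 counts per library against 1220 to 1554 for Psmd13. The library kit named in the labels does not mark strand, so the count of Psmd13 is uncertain.

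Base and lid together had a median log2 fold change of 0.16 over 17 subunits, close to the 0.19 of the core. All 31 subunits summed to 3830, 3970 and 3880 CPM in LNP-GFP and to 4240, 4250 and 4270 CPM in LNP-Gsdme. The LNP-Gsdme libraries were 9.21% higher on average, with an SD of this sum of 14.7 against 70.2 in the controls. The parts varied more unevenly. The SD in LNP-Gsdme and LNP-GFP was 30.2 and 27 for the core, 37.8 and 47.7 for the base, and 10.5 and 36.9 for the lid. LNP-Gsdme 2 was the highest of its group in the core (1890 CPM) and the lowest in the base (1250 CPM), which offset each other in the sum. Ly6c2 and the marker sums of fibroblasts, dendritic cells, NK cells, endothelial cells and the cell cycle did not overlap between the same groups. The cell cycle sums were nearly touching (lowest control 258 CPM, highest LNP-Gsdme library 257 CPM). The sums of melanoma and of the other lists overlapped. The part of the cell mixture in these differences was not tested.

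Assembly chaperones, which help build the core and the base and then leave, were not called: 0 of 7 rose or fell (1 higher and 0 lower at an unadjusted p under 0.05, and 0 by DESeq2 or limma-voom). Their median log2 fold change was 0.05, and their sum was 124, 119 and 118 CPM in LNP-GFP and 125, 129 and 122 CPM in LNP-Gsdme. Psmg3, 1 of the 4 chaperones of the core, came closest, at 8.33, 7.74 and 8.64 CPM in LNP-GFP and 10.5, 10.9 and 10.4 CPM in LNP-Gsdme (log2 fold change 0.36 ± 0.11 SE, adjusted p = 0.0729). The other core chaperones Psmg1, Psmg2 and Psmg4 had values of 0.17, -0.03 and 0.20. The base chaperones Psmd5, Psmd9 and Psmd10 had values of -0.01, -0.07 and 0.05, and the groups overlapped in each. Psmd9 stood at 37.6, 30.3 and 31.9 CPM in LNP-GFP and at 29.2, 32.6 and 33.3 CPM in LNP-Gsdme (adjusted p = 0.690), and its direction rested on LNP-GFP 1 (log2 fold change 0.04 without it). Chaperone transcripts had few counts, and their SE ran from 0.10 (Psmd10) to 0.22 (Psmg2) on the log2 scale. Some subunits with more counts had an SE in that range too, such as Psma2 (0.18). A shift as small as that of the subunits was not detectable for several of the chaperones.

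Of the activators and the inhibitor, 0 of 3 were called (0 at an unadjusted p under 0.05 and 0 by DESeq2 or limma-voom). Psme3, a nuclear activator that opens the core independently of ubiquitin, stood at 140, 129 and 133 CPM in LNP-GFP and at 126, 122 and 121 CPM in LNP-Gsdme (log2 fold change -0.12 ± 0.07 SE, adjusted p = 0.249). It was lower in every LNP-Gsdme library by a small margin. Psme4, another nuclear activator, and Psmf1, which can inhibit the core, had values of 0.08 and 0.05.

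The remaining matches to the gene rule lie outside the constitutive complex. Psma8, an alpha subunit of the testis, had 0.309 to 0.949 CPM and Psmb11, the catalytic subunit of the thymus cortex, had 0 to 0.0562 CPM, and both failed the low-count filter. Psmc3ip, a meiotic recombination factor, had 1.80 to 3.14 CPM and Psme3ip1 28.7 to 40.8 CPM, and neither passed (log2 fold changes 0.01 and 0.14; adjusted p = 0.978 and 0.482). Psme2b was listed at 180 to 230 CPM in LNP-GFP and 224 to 256 CPM in LNP-Gsdme (log2 fold change 0.27, adjusted p = 0.152). The row of Psme2 held 40.7 to 63.9 CPM over the 6 libraries. Reads may have been split between the pair, which was not tested, so the level of each is uncertain. Psme2b also lies within the span of Gm12185.

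Levels per length were compared with the deposited FPKM, which are not scaled by TMM. The median over subunits of the mean FPKM of all libraries was 39.7 in the core (9.55 for Psma3 to 98.8 for Psmb4), 29.3 in the base (16.9 for Psmd4 to 64.3 for Psmc5) and 25.2 in the lid (10.2 for Psmd11 to 57.0 for Psmd8). Chaperones were far lower, at a median of 4.07 (2.05 for Psmd5 to 19.4 for Psmg4). The catalytic subunits lay close together, at 51.2 to 57.9. Core subunits occur in equal numbers in the complex, yet their FPKM covered a wide range. The gene lengths used differ as well: the length implied by the FPKM was 6.25 kb for Psma3 and 2.66 kb for Psmb4, and lengths of 0.743 kb (Psmg4) to 10.3 kb (Psmd11 and Psmf1) occurred among the tested members of these roles.

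**Figure D3:**
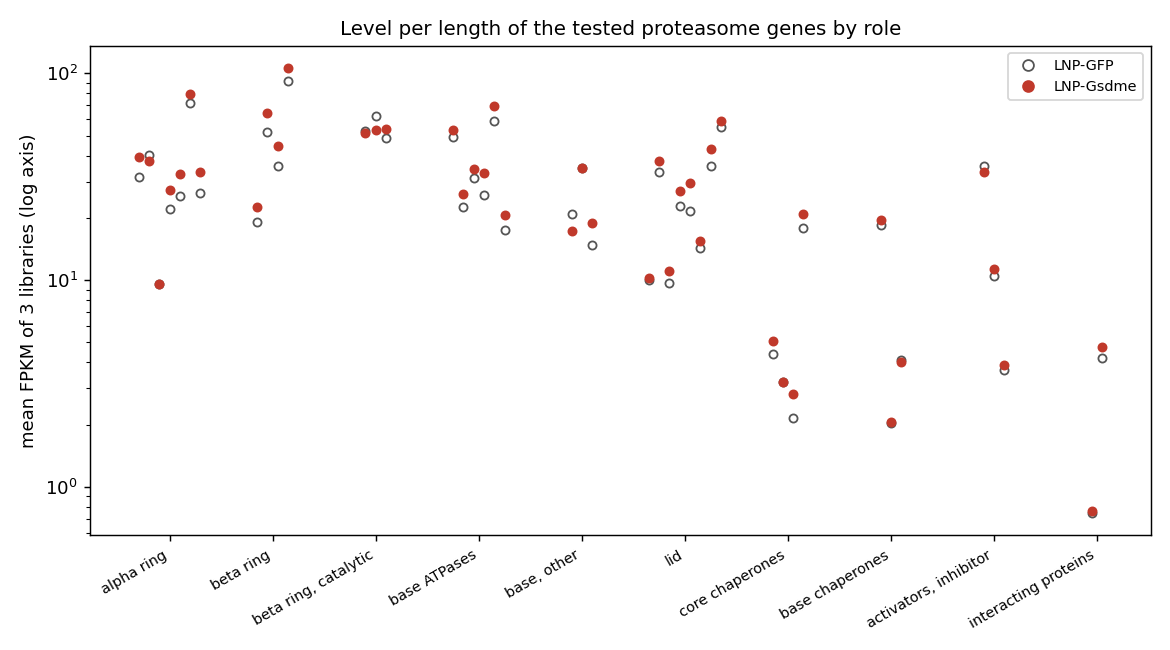
Mean FPKM of 3 libraries (y axis, log scale) for each tested member except Psme2b, by role (x axis); open points are LNP-GFP and filled points LNP-Gsdme. Core, base and lid lie mostly between 10 and 100 FPKM and the chaperones mostly under 10, and the catalytic subunits sit together near 50.

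The constitutive catalytic subunits were set against the interferon-inducible ones that replace them. Psmb10, the counterpart of Psmb7, rose from 155, 121 and 142 CPM to 221, 205 and 194 CPM (log2 fold change 0.57 ± 0.11 SE, adjusted p = 0.0275). The adjusted p was 0.116, 0.108 and 0.101 without LNP-GFP 3, LNP-Gsdme 1 and LNP-Gsdme 2, respectively. Psmb9, the counterpart of Psmb6, stood at 98.6, 57.7 and 77.1 CPM in LNP-GFP and at 137, 143 and 115 CPM in LNP-Gsdme (log2 fold change 0.76 ± 0.20 SE, adjusted p = 0.0570). Psmb9 passed with DESeq2 (adjusted p = 0.00420), with limma-voom (0.0493) and without LNP-GFP 1 (0.0198). Psmb8, the counterpart of Psmb5, stood at 262, 174 and 210 CPM in LNP-GFP and at 252 to 269 CPM in LNP-Gsdme (log2 fold change 0.26, adjusted p = 0.269, or 0.0424 with LNP-GFP 1 left out).

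Ratios of FPKM within a library need no scaling between libraries. Psmb9 over Psmb6 was 0.239, 0.119 and 0.181 in LNP-GFP and 0.447, 0.345 and 0.298 in LNP-Gsdme, so the groups did not overlap. Psmb10 over Psmb7 was 0.795, 0.590 and 0.728 in LNP-GFP and 1.02, 0.914 and 0.937 in LNP-Gsdme, again without overlap. Psmb8 over Psmb5 was 0.976, 0.597 and 0.728 in LNP-GFP and 0.874, 0.919 and 1.08 in LNP-Gsdme, and here LNP-GFP 1 lay within the range of LNP-Gsdme. Within the controls all 3 ratios were highest in LNP-GFP 1 and lowest in LNP-GFP 2. The marker sums of NK cells (398, 90.8 and 235 CPM) and T cells (523, 177 and 346 CPM) had the same order. So had those of macrophages (4830, 3050 and 4230 CPM), conventional dendritic cells, endothelial cells and the cell cycle. The sums of melanoma (338, 1840 and 1100 CPM), fibroblast and neutrophil markers had the reverse order. Those of Ly6C-high monocytes and B cells had neither. The order is a common one, as LNP-GFP 3 was the middle control in 61.9% of all tested genes. The part of any of these cells in the ratios was not tested. The sum of the 31 constitutive subunits was lowest in LNP-GFP 1 (3830 CPM) and highest among controls in LNP-GFP 2 (3970 CPM).

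**Figure D4:**
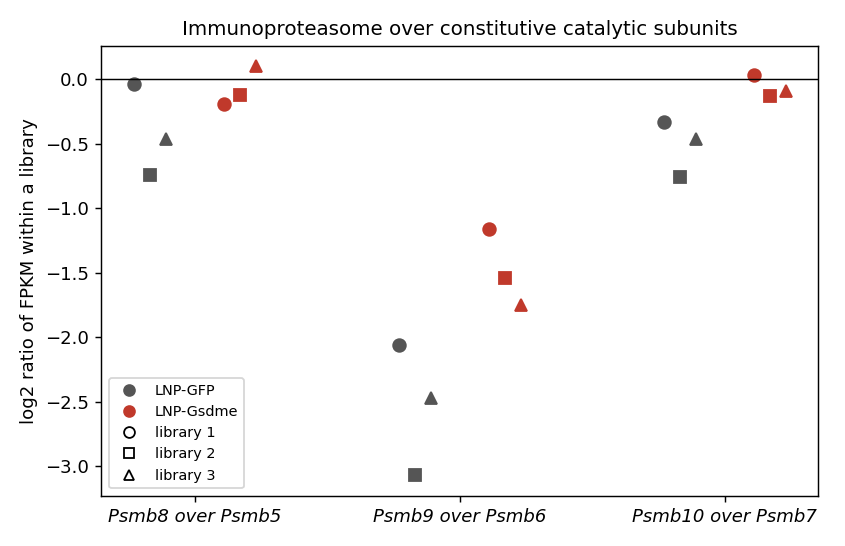
Log2 ratio of FPKM (y axis) of each immunoproteasome subunit over the constitutive subunit it replaces, in each of the 6 libraries; symbols mark libraries 1 to 3 and colours the groups. The groups are separate for Psmb9 over Psmb6 (-3.07 to -2.06 against -1.75 to -1.16) and Psmb10 over Psmb7 (-0.76 to -0.33 against -0.13 to 0.03) and overlap for Psmb8 over Psmb5.

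The listed genes that work with the proteasome did not pass in edgeR. The 19 tested partners were cap subunits outside the rule, the maturation factor Pomp, deubiquitinases, ubiquitin shuttles and other linked genes such as Akirin2, Fbxo7 and Midn. Of these 0 were called by edgeR or limma-voom. At an unadjusted p under 0.05, 3 were higher and 0 lower, and DESeq2 called 2 upward, Adrm1 and Midn. Of all 16010 tested genes 2580 were higher and 2471 lower at that unadjusted p. The median log2 fold change of the partners was 0.00. Adrm1, a ubiquitin receptor of the cap, stood at 69.3, 79.7 and 72.5 CPM in LNP-GFP and at 86.5, 96.4 and 87.9 CPM in LNP-Gsdme (log2 fold change 0.29 ± 0.08 SE, adjusted p = 0.0717). Its groups did not overlap, as in Psmd4, another receptor. Pomp, which completes the core, stood at 80.5, 82.3 and 87.0 CPM in LNP-GFP and at 118, 106 and 74.6 CPM in LNP-Gsdme, with LNP-Gsdme 3 below every control.

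A list of 10 genes held the transcription factor Nfe2l1 (NRF1), which raises proteasome genes, the genes of its release from the endoplasmic reticulum, and the related factor Nfe2l2 (NRF2) with its repressor Keap1. Of these 0 were called by edgeR or limma-voom, with 3 higher and 2 lower at an unadjusted p under 0.05, and DESeq2 called Sel1l and Vcp downward. Their log2 fold changes ran from -0.64 (Sel1l) to 0.35 (Ngly1), with 0.24 for Nfe2l2 and 0.22 for Keap1, and the median of 0.19 includes that pair. Nfe2l1 itself stood at 42.9, 69.2 and 59.0 CPM in LNP-GFP and at 55.5, 54.8 and 44.8 CPM in LNP-Gsdme (adjusted p = 0.623), with full overlap. Sel1l, which helps carry proteins out of the endoplasmic reticulum, stood at 136, 194 and 193 CPM in LNP-GFP and at 101, 104 and 129 CPM in LNP-Gsdme (log2 fold change -0.64 ± 0.17 SE, adjusted p = 0.0572). All its LNP-Gsdme libraries lay below the controls.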

How the data were processed

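The deposited table holds raw counts and FPKM of the authors for each of the 6 libraries, per the file headers. The submitters' processing notes name GRCm39. The aligner, counting tool and strand setting were not given in the sources. The deposited FPKM equal the counts per gene length and library total, which was checked on 11356 genes (implied lengths differed by at most 0.00178%). The spans of 21 members overlap another gene, in 9 cases one with over 50 counts.

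Counts were fitted in R 4.3.3 with edgeR 4.0.16: filterByExpr, TMM factors, robust quasi-likelihood test, Benjamini-Hochberg adjustment over 16010 genes, and a threshold of 0.05. SE were derived from the F statistic. The procedure was tested on simulated data with changes larger than those of the called members, so that test does not cover shifts of their size. Alternatives used DESeq2 1.42.0, limma-voom (limma 3.58.1), other scalings, filters and thresholds, a replicate block and omission of each library. Cell markers and pathway lists, with 1 symbol unmatched (Paaf1), and the members were chosen with earlier results of these data known. Values by library were given for called members, for the member with the smallest p of each role and list, and for the catalytic subunits. Other members named with values were chosen after their values were seen. Motif searches used RefSeq promoters. A further pathway list is not reported here.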

Additional observations from a re-analysis of the deposited data

How the results depend on the processing

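The count of called genes depended strongly on the libraries and the threshold, while the direction of the members' median did not change under any alternative tried. Over all genes 1859 were called (1008 rose and 851 fell), against 3020 (1527 and 1493) with DESeq2, 183 (131 and 52) at an adjusted p below 0.01 and 3538 (1833 and 1705) below 0.10. Leaving out single libraries gave 88 to 2841 calls (64 to 1625 rose, 24 to 1216 fell), with 2 libraries left in 1 group. Of the members, 7 rose. The count was 3 with upper-quartile factors (5.34% of all genes upward) and 1 without a low-count filter (2.52%). It was 0 at an adjusted p below 0.01 (0.818%) and 13 below 0.10 (11.4%, with 1 member that fell, Psmd1). Without single libraries it was 0 to 8.

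The members' median log2 fold change was 0.11 with upper-quartile factors, 0.18 with library size only, 0.13 without a filter, and 0.14 to 0.16 without single libraries. The median of all tested genes was -0.05, 0.02 and -0.03 in the same 3 settings, 0.00 with the stricter filter, and -0.01 to 0.01 without single libraries. With upper-quartile factors the core, base, lid and chaperone medians were 0.14, 0.14, 0.12 and 0.01, and the chaperone median was 0.08 with library size only. Without single libraries they ran from 0.16 to 0.23 in the core, 0.14 to 0.24 in the base, 0.13 to 0.19 in the lid and 0.02 to 0.12 in the chaperones. The value of Psmd9 ran from -0.13 to 0.04 without single libraries, changing sign without LNP-GFP 1. Of 374 values of 22 genes under the alternatives, 295 kept their direction and side of the threshold, 62 no longer passed, 16 newly passed and 1 changed sign. Most of the 22 genes were not called in the main fit, and for them keeping the side means staying uncalled. The 62 losses fell on the called genes alone. Each called member kept its call in 6 (Psmb2) to 12 (Psmd4) of 17 alternatives.

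Deviations from the group mean correlated at 0.21, -0.24 and 0.03 between same-numbered libraries, and at -0.33 to 0.32 between differently numbered ones. Whether the numbers pair the samples is not stated. These correlations cannot decide it, because the deviations within a group of 3 libraries depend on each other. With the replicate block 0 members rose and 155 genes were called (103 rose and 52 fell), and the adjusted p of Psmd4 was 0.0965. With SE of 0.06 to 0.25 (median 0.09) for the tested members, 3 libraries per group left most shifts of the size of the median undetectable gene by gene.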
